A study of Mus musculus with 80 samples.

Results

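The nuclear receptors described here are 33 of the 20105 genes in the count table, taken by symbol from a fixed list of family members: the peroxisome proliferator-activated receptors (Ppara, Ppard, Pparg), the retinoid X receptors (Rxra, Rxrb, Rxrg), the retinoic acid receptors (Rara, Rarb, Rarg), the thyroid hormone receptors (Thra, Thrb), the oxysterol and bile acid receptors (Nr1h2, Nr1h3, Nr1h4, Nr1h5), the xenobiotic and vitamin D receptors (Nr1i2, Nr1i3, Vdr), Hnf4a and Hnf4g, the orphan receptors Nr2c1, Nr2c2, Nr2f1, Nr2f2 and Nr2f6, the estrogen and estrogen-related receptors (Esr1, Esrra, Esrrb, Esrrg), the mineralocorticoid and progesterone receptors (Nr3c2, Pgr), Nr5a2 and Nr6a1. All 33 symbols were found. RNA was sequenced from liver nuclei of female mice of the HEP-INTACT line, in which nuclei of hepatocytes carry a tag for immunopurification, and of the MAC-INTACT line, in which nuclei of macrophages carry it. Mice either ate ad libitum or were fasted from zeitgeber time 12, when the lights go off and the active phase begins, and livers were taken after 3, 8, 16 or 24 h, at zeitgeber times 15, 20, 4 and 12. Each line, feeding state and time had 4 libraries of tagged nuclei and 1 library of unpurified nuclei pooled from 4 mice, which makes 64 tagged libraries in 16 groups and 16 pools. The labels do not name the promoter that drives the tag, the age or background of the mice, or whether a tagged library came from 1 mouse, so the p-values measure the spread between these libraries.

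Nuclear receptors are transcription factors with a zinc finger domain that binds DNA and, in most members, a pocket that binds a small lipophilic ligand. Retinoid X receptors pair with many of the others, and coactivators and corepressors exchanged on the bound receptor set the output of the target gene. In the liver the family links circulating signals to metabolism: PPARα is known for switching on fatty acid oxidation and ketone production during fasting, the liver X receptors for lipid synthesis and cholesterol export, the farnesoid X receptor for bile acid balance, and the pregnane X and constitutive androstane receptors for the clearance of drugs and bile acids.

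The 3 promoters printed next belong to the receptors whose fasting effects are described most fully below, 2 xenobiotic receptors that were higher after fasting and the estrogen receptor, which was lower. They are the 250 bases before the gene's start, 5′ to 3′ on the gene's strand, from RefSeq on GRCm38.p6. Capitals mark the E-box CACGTG, the site of clock and other basic helix-loop-helix factors, searched on both strands. The Nr1i2 window lies at chr16:38294825-38295074 on the minus strand, the Nr1i3 window at chr1:171213720-171213969 on the plus strand, and the Esr1 window at chr10:4611739-4611988 on the plus strand.
Nr1i2: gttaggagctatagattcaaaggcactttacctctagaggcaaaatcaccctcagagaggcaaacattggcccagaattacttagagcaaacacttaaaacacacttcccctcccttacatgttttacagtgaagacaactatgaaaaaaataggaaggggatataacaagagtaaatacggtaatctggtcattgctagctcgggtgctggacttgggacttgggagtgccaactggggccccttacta
Nr1i3: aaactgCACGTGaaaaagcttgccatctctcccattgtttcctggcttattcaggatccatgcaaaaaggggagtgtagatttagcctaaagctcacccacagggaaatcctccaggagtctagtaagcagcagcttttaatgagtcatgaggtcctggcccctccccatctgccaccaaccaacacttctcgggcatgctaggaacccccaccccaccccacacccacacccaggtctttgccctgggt
Esr1: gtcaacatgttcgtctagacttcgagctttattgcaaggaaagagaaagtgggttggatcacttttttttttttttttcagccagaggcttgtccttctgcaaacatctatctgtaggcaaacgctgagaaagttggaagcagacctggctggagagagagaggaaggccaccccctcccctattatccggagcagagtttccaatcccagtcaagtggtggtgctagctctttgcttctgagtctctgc

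A RefSeq promoter window was found for 31 of the 33 receptors, and for 28 it began within 250 bases of the start listed in the count table. In the windows of 300 bases (250 before the start and 50 after), CACGTG occurred in 2 of the 28, Rara and Nr1i3, which is 7.14% against 7.15% of all 32851 windows. The core element AGGTCA, which most of the family reads, occurred in 4 of 28 (Pparg, Rarg, Thrb and Nr5a2), or 14.3% against 16.3% of all windows. The direct repeat AGGTCANAGGTCA, which contains the core element and is bound by PPAR and RXR pairs, the forkhead motif TGTTTAC and the steroid receptor palindrome GNACANNNTGTNC occurred in 0 of 28, against 0.0396%, 3.65% and 0.475% of all windows. The share of these motifs among the receptors was thus close to that among all promoters.

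Tagged libraries held 12597786 to 44694933 counts and pools 13246494 to 35514304. Of the 64 tagged libraries, 61 correlated at 0.981 to 0.995 with the mean of the others of their group (log2 CPM of 12314 genes). The 3 that stood apart were the macrophage-tagged fasted library of 3 h numbered 3 (0.948), the hepatocyte-tagged fasted library of 16 h numbered 3 (0.972) and the macrophage-tagged fasted library of 16 h numbered 1 (0.976). Without them 8 of the 11 receptor calls in the 3 fasting comparisons that use them were kept, and those of Rarg, Esrra and Nr2c1 were lost. Against unpurified liver of the same line, hepatocyte-tagged libraries were depleted of macrophage markers (median log2 difference -2.34 over 15 genes), endothelial markers (-2.54 over 13) and stellate cell markers (-2.26 over 12). Macrophage-tagged libraries were enriched for macrophage markers (median 4.14) but kept much hepatocyte RNA: 14 hepatocyte markers lay 1.05 to 1.47 log2 units below unpurified liver, and none was at 0 in any group.

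In fed hepatocyte nuclei the family was dominated by a few metabolic receptors. Levels are counts scaled to the library total (CPM) per kilobase of the listed gene body, introns included, so that genes of different length can be compared, and are given as mean ± SD of 16 fed libraries. Nr1i3, the constitutive androstane receptor, stood highest at 73.9 ± 32.6 CPM per kb, followed by Hnf4a, which maintains hepatocyte identity, at 22.3 ± 5.17, Ppara at 21.3 ± 7.86, the farnesoid X receptor gene Nr1h4 at 17.9 ± 4.88 and Rxra at 17.6 ± 4.75. The last 4 overlapped within their SD, and together with Nr1i3 these genes made up 71.0% of the family's summed level. Nr1i2 (the pregnane X receptor, 7.50 ± 2.53), Nr1h3 (the liver X receptor LXRα, 7.40 ± 1.18), Nr2f6 (6.69 ± 1.94) and Thrb (6.41 ± 1.15) formed a second tier whose SD also overlapped. At the bottom were Nr2f1 at 0.0202, the vitamin D receptor gene Vdr at 0.00132 and the progesterone receptor gene Pgr at 0.000748 CPM per kb. Unpurified fed liver had the same 5 genes in front, with Nr1i3 at 56.6 and Hnf4a at 18.9 CPM per kb. Nr1i3 spans 4876 bases (chr1:171213970-171218845, plus strand) and overlaps Tomm40l on the other strand, and whether the deposited counts used strand was not given in the sources used here, so part of its level could be reads of that neighbour.

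In fed macrophage-tagged libraries the leading receptor was Nr1h3 at 32.8 ± 6.01 CPM per kb, ahead of Nr1i3 at 24.0 ± 9.37, Rxra at 16.2 ± 1.58, Ppara at 7.80 ± 3.13 and Hnf4a at 7.75 ± 3.11. Between fed cell types, 28 of the 32 receptors tested differed (18 higher in hepatocyte and 10 in macrophage libraries, edgeR adjusted p under 0.05). Of all genes tested 82.7% differed, 42.7% higher in hepatocytes and 40% lower. Each cell type came from its own mouse line and its own series of library numbers. In every comparison between the cell types here, cell type, line and library series cannot be told apart. Vdr was lower in hepatocyte nuclei by 4.84 ± 0.30 log2 units, at up to 0.183 CPM in fed hepatocyte-tagged and 1.05 to 4.08 CPM in fed macrophage-tagged libraries. It averaged 1.25 counts per fed hepatocyte-tagged library and 50.4 per fed macrophage-tagged one, and had too few counts for the hepatocyte fit. It passed the filter here only through the macrophage-tagged libraries, so no difference between the cell types is read from its call or fold. Nr1h3 was lower in hepatocyte nuclei by 2.20 ± 0.07 log2 units. Thra (-0.80), Rarg (-0.70), Nr1h2 (LXRβ, -0.53), Pparg (-0.46), Rara (-0.43) and Rxrb (-0.41) were lower in hepatocytes by less. Rxrg (1.63), Esrrg (1.55), Hnf4g (1.54), Nr1i3 (1.52), Hnf4a (1.49), Ppara (1.39), Nr1i2 (1.38) and Nr1h4 (1.33) led those higher in hepatocytes. For Rxra, the common partner of the others, the log2 difference between the cell types was 0.03 ± 0.10 (edgeR adjusted p = 0.775), and for Ppard it was -0.02 (edgeR adjusted p = 0.797).

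**Figure D1:**
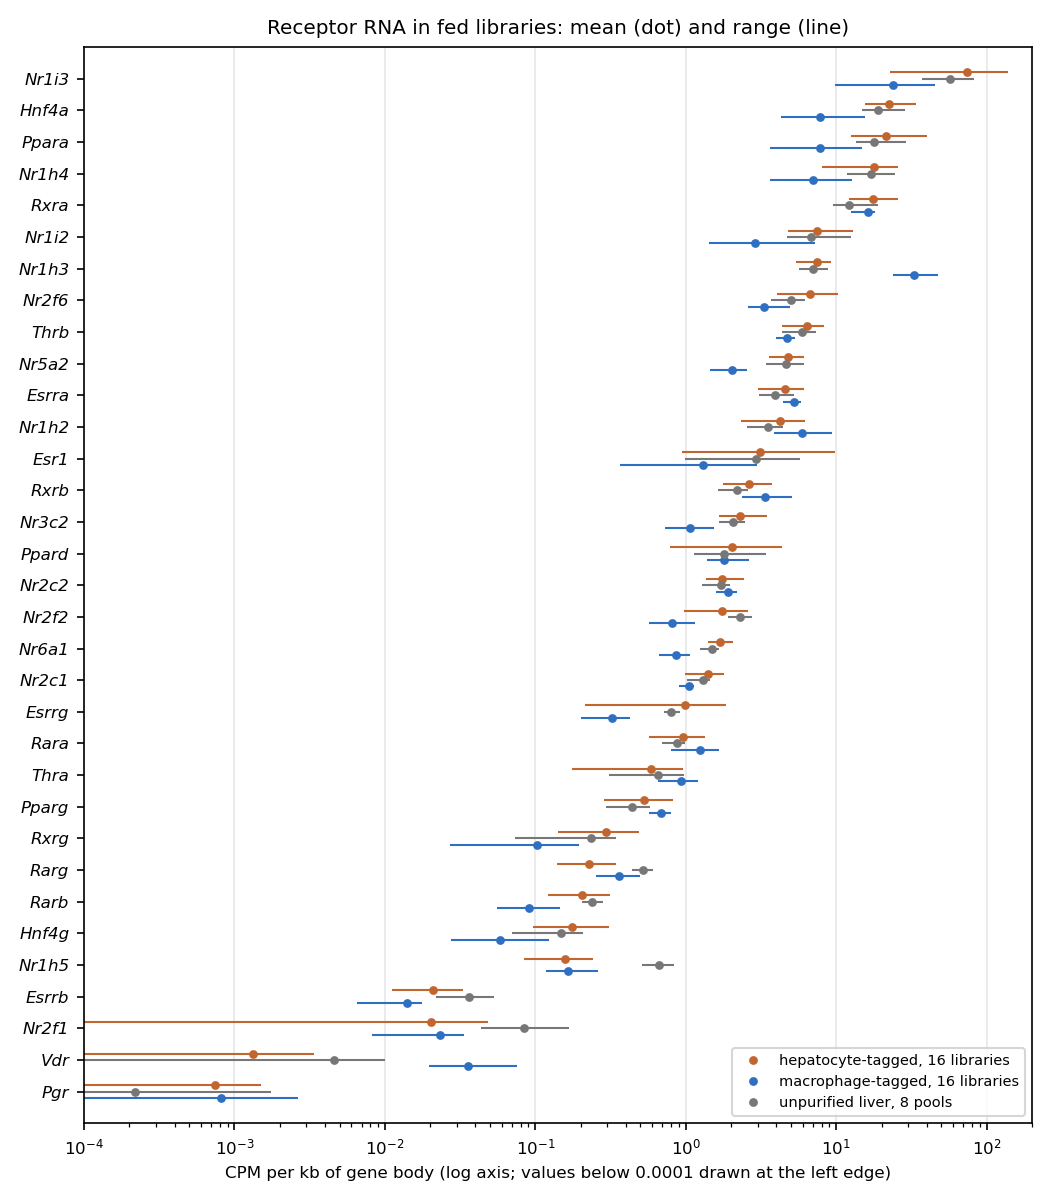
Level of each receptor gene in fed libraries, in CPM per kilobase of gene body on a log axis, for hepatocyte-tagged nuclei (orange, 16 libraries), macrophage-tagged nuclei (blue, 16 libraries) and unpurified pools (grey, 8). Dots are means and lines the range over libraries. Nr1i3 stands highest in hepatocyte nuclei at 73.9 and Nr1h3 in macrophage nuclei at 32.8 CPM per kb. Vdr had a mean of 1.25 counts per library in hepatocyte nuclei.

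Purification separated the receptors from each other. In macrophage-tagged nuclei 31 of 32 receptors tested differed from unpurified liver (10 higher, 21 lower), where 76.8% of all genes did (36.2% higher, 40.7% lower). The higher ones were led by Nr1h3 (log2 difference 2.06 ± 0.09), with Pparg (0.83), Nr1h2 (0.68), Rara (0.55), Rxrb (0.54), Thra (0.50), Rxra (0.50), Esrra (0.36) and Nr2c2 (0.19). Vdr (3.27 ± 0.27) had 1 to 8 counts in the pools of this line. It passed the filter only through the tagged libraries, so no enrichment is read from its call. For 14 receptors, among them Ppara (-1.11 ± 0.14), Nr1i2 (-1.27 ± 0.14), Nr1i3 (-1.19 ± 0.16) and Hnf4a (-1.27 ± 0.14), the difference fell inside the range of the hepatocyte markers, 17 lay above that range and 1, Nr1h5, below it at -1.60. All 14 also lay inside the wider ranges of the stellate (-1.59 to -0.16), endothelial (-1.78 to 2.56), cholangiocyte and lymphocyte markers. In hepatocyte-tagged nuclei 17 of 31 receptors differed from liver (11 higher, 6 lower), against 50.3% of all genes (28.8% higher, 21.5% lower), whose median difference was 0.12. The 6 lower were Nr1h5 (-2.42 ± 0.12), Rarg (-1.57 ± 0.10), Esrrb (-0.88), Nr2f2 (COUP-TFII, -0.56), Rarb (-0.42) and Nr2f1 (-2.48 ± 0.26). Nr2f1 averaged 3.81 counts per fed hepatocyte-tagged library and held 12 to 24 counts in the pools of this line. It passed the filter only through the pools, so no depletion is read from its call. The higher ones, such as Nr1i3 (0.43), Rxra (0.37), Hnf4a (0.35) and Ppara (0.34), moved by little more than the hepatocyte markers did (median 0.23). In such bulk samples fewer cells of a type and less RNA per cell cannot be told apart.

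**Figure D2:**
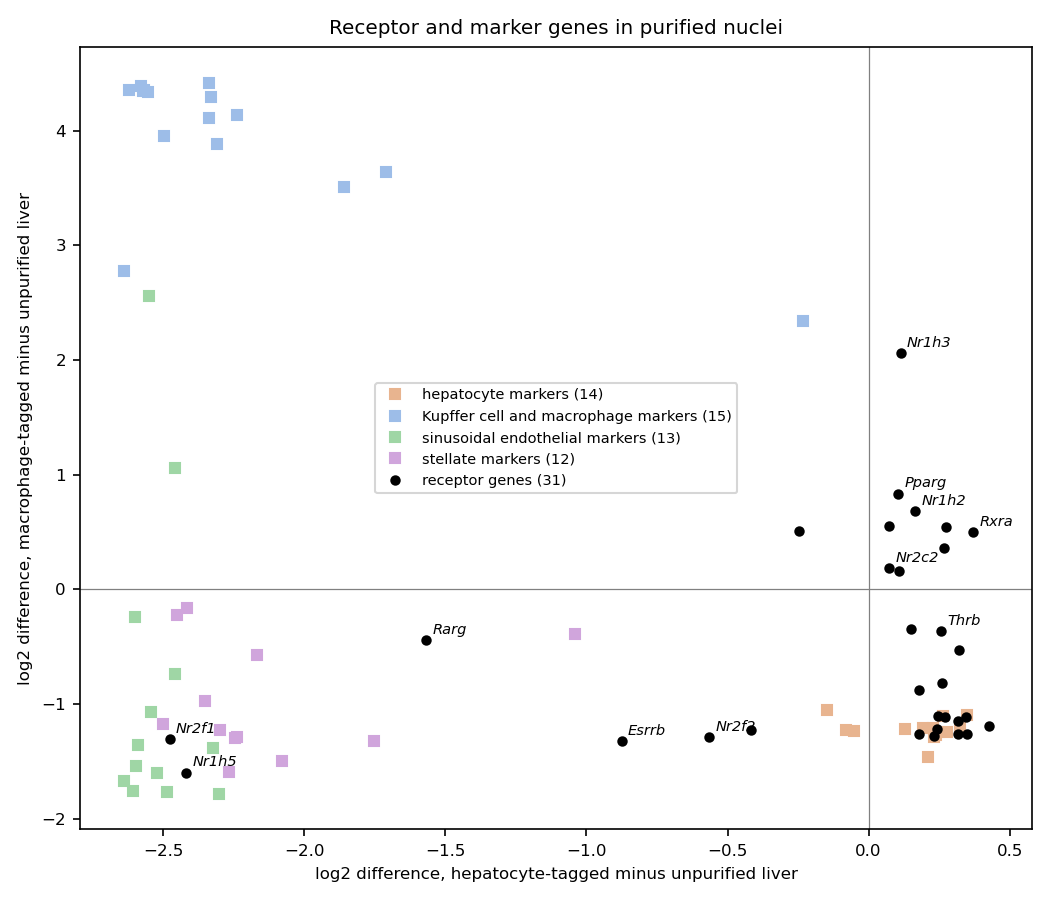
Log2 difference from unpurified liver in hepatocyte-tagged (x axis) and macrophage-tagged nuclei (y axis) for the 31 receptor genes tested in both, as black points over marker genes of hepatocytes, macrophages, endothelial and stellate cells (squares). Nr1h3 sits highest of the receptors, and Nr1h5 and Rarg stand at the left, with Nr2f1, which had few counts in tagged nuclei. Ppara, Nr1i2 and Hnf4a lie within the cluster of hepatocyte markers, and Nr1i3 just to its right.

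Fasting changed most receptors in hepatocyte nuclei within the first hours of the night, and in both directions. After 3 h, 20 of 30 receptors tested differed between fasted and fed libraries (9 higher, 11 lower; edgeR quasi-likelihood test, Benjamini-Hochberg adjusted over all genes), where 39.9% of all 12942 genes did (19.5% higher, 20.4% lower). After 8 h 19 of 30 differed (5 higher, 14 lower) against 38.7% of all genes (18% higher, 20.7% lower). After 16 h 3 differed (2 higher, 1 lower) against 18.1% (9.55% higher, 8.55% lower), and after 24 h 6 (2 higher, 4 lower) against 24% (11.6% higher, 12.4% lower). The share of receptors called was thus above that of all genes at 3 and 8 h, and no higher at 16 and 24 h. Vdr, Nr2f1 and Pgr had too few counts to be tested. Called with no overlap of fed and fasted libraries were 16 of the 20 at 3 h, 16 of the 19 at 8 h, 2 of the 3 at 16 h and all 6 at 24 h. Over all genes tested 34%, 31.3%, 11.9% and 18.9% met both conditions, which is 85.2%, 80.8%, 65.6% and 78.6% of the genes called. The median log2 fold change over the receptors tested was -0.21 at 3 h and -0.28 at 8 h, against -0.03 and -0.02 over all genes, then 0.05 and -0.04 at 16 and 24 h. Over the 4 times 27 of the 30 were called at least at 1 time, and Ppara, Nr2f2, Nr2f6 and Nr5a2 were called in opposite directions at different times. Of each such pair of calls 1 was lost in some alternatives: those of Ppara and Nr2f6 at 24 h, Nr2f2 at 16 h and Nr5a2 at 8 h. Without the 3 libraries that stood apart the counts were 21, 19, 2 and 7, and leaving out single libraries gave 0 to 4 at 16 h and 3 to 6 at 24 h. Summed hepatocyte markers in these libraries were also higher at 3 h (18665 to 24630 CPM fasted, 12730 to 17098 fed), and summed macrophage markers at 8 h (91.9 to 141 CPM fasted, 64.3 to 79.8 fed). Summed stellate markers were lower at 16 h (47.2 to 70.8 CPM fasted, 100 to 158 fed). Summed cholangiocyte markers were lower at every time, at 142 to 202 CPM fasted and 355 to 496 fed at 3 h, 107 to 175 and 463 to 563 at 8 h, 296 to 474 and 514 to 756 at 16 h, and 159 to 246 and 373 to 646 at 24 h. Of that sum 79% was Pkhd1, and 2, 3, 1 and 2 of the 7 cholangiocyte markers tested were called lower and 0 higher. The part of these markers in the receptor counts was not tested.

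**Figure D3:**
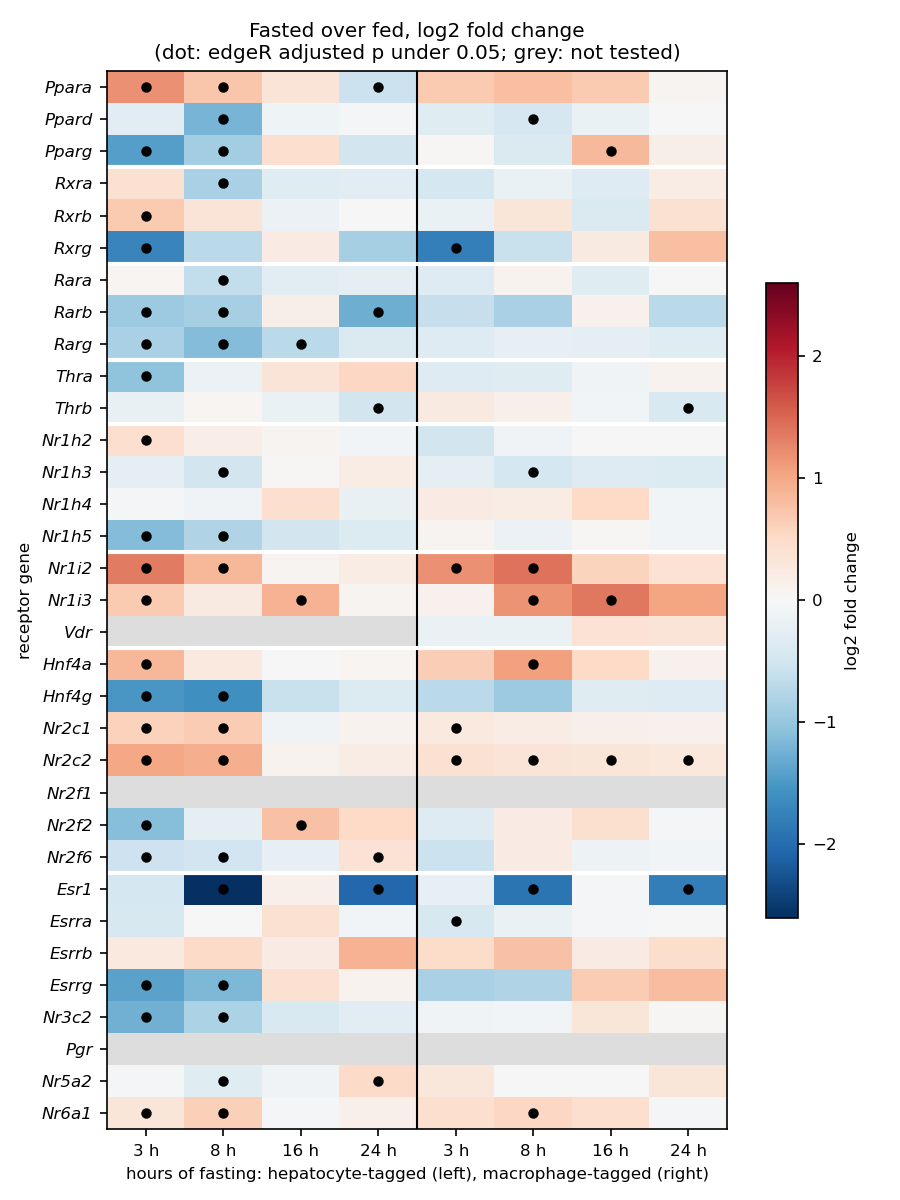
Log2 fold change of fasted over fed libraries for each receptor gene (rows) at 3, 8, 16 and 24 h in hepatocyte-tagged and macrophage-tagged nuclei (columns). Black dots mark edgeR adjusted p under 0.05 and grey cells were not tested. Most marks stand in the hepatocyte columns of 3 h (20 genes) and 8 h (19 genes), and the deepest is Esr1 at 8 h (-2.59).

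Of the PPARs, Ppara was raised early in the fast and lowered late. PPARα is the fatty acid sensor of the fasting liver. Its gene (chr15:85735564-85806851, plus strand) had 1338, 1044, 1529 and 1629 CPM in hepatocyte nuclei of mice fed to 3 h and 3180, 3165, 2513 and 3186 CPM in those fasted for 3 h. Every fasted library was above every fed one, and the level was 2.27 times as high (log2 fold change 1.18 ± 0.20, edgeR adjusted p = 2.84e-05). At 8 h it was 973 to 1599 CPM fed and 1893 to 2125 CPM fasted (log2 0.73 ± 0.20, edgeR adjusted p = 0.00424), again with no overlap. At 24 h the order was the opposite, with 1951 to 2876 CPM fed and 1206 to 1778 CPM fasted (log2 -0.57 ± 0.20, edgeR adjusted p = 0.0352). That call was lost when any 1 of 5 of the 8 libraries was left out (edgeR adjusted p up to 0.111). The fasting effect differed between the times (edgeR adjusted p = 0.00020). In macrophage-tagged libraries Ppara had 339 to 693 CPM fed and 632 to 1130 CPM fasted at 3 h (log2 0.67 ± 0.30, edgeR adjusted p = 0.125), and the difference of the effect between the cell types was 0.55 ± 0.35 log2 units (edgeR adjusted p = 0.326).

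Ppard and Pparg went the other way. PPARδ is a broadly expressed fatty acid receptor, and Ppard in hepatocyte nuclei was 211, 249, 267 and 299 CPM in the fed libraries of 8 h and 95.8, 115, 95.2 and 121 CPM in the fasted ones. The fasted values were all less than the lowest fed one (log2 -1.21 ± 0.14, edgeR adjusted p = 2.08e-07). It also fell in macrophage nuclei at 8 h, from 154 to 181 CPM fed to 105 to 150 CPM fasted (log2 -0.43 ± 0.11, edgeR adjusted p = 0.0127), and the fall was larger in hepatocytes by 0.70 ± 0.18 log2 units (edgeR adjusted p = 0.00984). Ppard in macrophage-tagged nuclei was 0.16 log2 units above liver, well above the hepatocyte markers. That difference was not called with all libraries, but was called without those that stood apart. PPARγ is best known for lipid storage. Pparg in hepatocyte nuclei was 86.6, 62.5, 67.3 and 81.0 CPM fed and 16.1, 41.8, 20.2 and 26.8 CPM fasted at 3 h, again without overlap (log2 -1.44 ± 0.33, edgeR adjusted p = 0.000996). In macrophage-tagged nuclei Pparg rose at 16 h, from 77.3 to 95.3 CPM fed to 124 to 183 CPM fasted (log2 0.85 ± 0.24, edgeR adjusted p = 0.0180), and without the libraries that stood apart by 0.72 (edgeR adjusted p = 0.0360). That call was lost without fasted library 1 or fed library 4 of 16 h (edgeR adjusted p up to 0.0779). The effects at 3 h differed between the cell types by -1.41 ± 0.41 log2 units (edgeR adjusted p = 0.0208), and without the 3 libraries that stood apart by -1.11 (edgeR adjusted p = 0.0863).

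The 3 retinoid X receptors, the partners of most receptors named here, moved apart from each other. Rxra in hepatocyte nuclei was 1486, 1418, 1265 and 1821 CPM fed and 678, 1051, 690 and 792 CPM fasted at 8 h, with no overlap (log2 -0.84 ± 0.16, edgeR adjusted p = 0.000172). At 3 h the direction of its difference was the opposite, 1041 to 1425 CPM fed and 1351 to 1682 CPM fasted (log2 0.39 ± 0.16, edgeR adjusted p = 0.0539), which did not pass the threshold. Its effect differed between the times (edgeR adjusted p = 0.00164). Rxrb rose at 3 h (log2 0.69 ± 0.16, edgeR adjusted p = 0.00105). Rxrg, a low-level member, was 20.2, 12.6, 16.3 and 14.7 CPM fed and 3.04, 8.17, 2.74 and 4.76 CPM fasted at 3 h, a 3.28-fold difference with no overlap (log2 -1.71 ± 0.35, edgeR adjusted p = 0.000297). In macrophage-tagged libraries Rxrg was lower too, at 2.70 to 7.88 CPM fed and 0.736 to 1.75 CPM fasted (log2 -1.78 ± 0.38, edgeR adjusted p = 0.00302, and -1.83 with 0.00350 without the libraries that stood apart), but Rxra and Rxrb were not called there. The Rxrg call in macrophage-tagged libraries was lost with the 8 libraries of that time alone. Between the cell types the 3 h effects of Rxra and Rxrb differed by 0.90 ± 0.28 and 0.91 ± 0.28 log2 units (edgeR adjusted p = 0.0268 and 0.0250). Without the libraries that stood apart these differences were 0.62 and 0.71 (edgeR adjusted p = 0.0558 and 0.0665). Among those left out, the fasted macrophage library of 3 h numbered 3 held 361 CPM of Rxra and 18770 CPM of summed hepatocyte markers, and Rxra was 946 to 1435 CPM in the other 3 of its group. That library also had the highest summed macrophage markers of its group, at 9854 CPM.

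The retinoic acid and thyroid hormone receptors that were called in hepatocytes were all lower after fasting. Rarb, itself a classical target of retinoic acid, was 156, 134, 177 and 189 CPM fed and 55.3, 60.3, 75.8 and 75.1 CPM fasted at 24 h, with the fasted values well under the fed ones (log2 -1.28 ± 0.31, edgeR adjusted p = 0.00306). It was lower also at 3 h (-0.94 ± 0.30) and 8 h (-0.86 ± 0.30), where the groups overlapped. Both of these calls were lost when any 1 of 4 (3 h) or 3 (8 h) of the 8 libraries was left out (edgeR adjusted p up to 0.0776 and 0.194). Rarg was lower at 3 h (-0.84 ± 0.22), 8 h (-1.12 ± 0.22) and 16 h (-0.70 ± 0.22). It held 4.41 to 6.41 CPM fed and 1.78 to 3.19 CPM fasted at 8 h, and the 16 h call was lost without the libraries that stood apart (-0.49, edgeR adjusted p = 0.129). Its depletion from hepatocyte nuclei relative to liver (-1.57) lay above the range of the endothelial markers (-2.64 to -2.30). It fell inside the ranges of the stellate (-2.50 to -1.04), macrophage (-2.64 to -0.23) and monocyte, neutrophil and dendritic markers (-2.76 to -1.31). Only Ecm1 (-1.04), Cd68 (-0.23) and Zbtb46 (-1.31) of these lists lay above Rarg. Rara was lower at 8 h (-0.64 ± 0.17, edgeR adjusted p = 0.00470) with overlapping groups. Thra, the gene of thyroid hormone receptor α, was 18.2, 13.9, 12.4 and 13.8 CPM fed and 5.36, 7.86, 6.24 and 7.60 CPM fasted at 3 h, so the groups stood apart (log2 -1.05 ± 0.31, edgeR adjusted p = 0.00738). Thrb, the main hepatic thyroid hormone receptor, was lower at 24 h in both cell types: in hepatocytes at 2203 to 3099 CPM fed and 1580 to 2076 CPM fasted (-0.48 ± 0.18, edgeR adjusted p = 0.0471), and in macrophage-tagged nuclei at 1677 to 1972 CPM fed and 1328 to 1531 CPM fasted (-0.40 ± 0.11, edgeR adjusted p = 0.0178). Neither pair of groups overlapped. The calls were lost when any 1 of 6 (hepatocytes) or 4 (macrophages) of the 8 libraries was left out, with edgeR adjusted p up to 0.135 and 0.0644, and in hepatocytes also with RLE scaling (0.0503).

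Among the sterol and bile acid receptors, the changes were small in the well expressed members. Nr1h3 (chr2:91184061-91195116, minus strand) fell at 8 h in both cell types by almost the same amount. In hepatocyte nuclei it was 87.6, 94.3, 87.4 and 90.3 CPM fed and 57.7, 65.9, 60.5 and 65.3 CPM fasted (log2 -0.47 ± 0.11, edgeR adjusted p = 0.000938). In macrophage nuclei, where its level was higher, it was 408, 422, 349 and 375 CPM fed and 319, 316, 242 and 254 CPM fasted (log2 -0.45 ± 0.15, edgeR adjusted p = 0.0413). All fasted libraries were under all fed ones in each cell type. The macrophage call was lost when any 1 of 5 of the 8 libraries was left out (edgeR adjusted p up to 0.153). Nr1h2 was higher in hepatocytes at 3 h, at 10.2 to 14.4 CPM fed and 14.5 to 20.9 CPM fasted (log2 0.44 ± 0.17, edgeR adjusted p = 0.0412). The call was lost without fasted library 2, fasted 4 or fed 3 (edgeR adjusted p up to 0.128). Its effect there differed from that in macrophages by 0.96 ± 0.26 log2 units (edgeR adjusted p = 0.0106), and by 0.81 (edgeR adjusted p = 0.0293) without the libraries that stood apart. Nr1h4, the bile acid receptor itself, was called at none of the 4 times: in hepatocytes its log2 fold changes were -0.05 ± 0.19, -0.10 ± 0.19, 0.43 ± 0.19 and -0.20 ± 0.19 at 3, 8, 16 and 24 h. Nr1h5, a little expressed relative of Nr1h4 that is depleted from hepatocyte nuclei, was lower at 3 h (-1.12 ± 0.30) and 8 h (-0.78 ± 0.30), and the 8 h call was lost when any 1 of 6 of the 8 libraries was left out (edgeR adjusted p up to 0.109).

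The xenobiotic receptors Nr1i2 and Nr1i3 rose, both of them at 3 h in hepatocytes and at 8 h in macrophage-tagged nuclei, and Nr1i3 also at 16 h in each. Nr1i2 (chr16:38248349-38294824, minus strand), whose promoter is printed above, was 291, 314, 325 and 296 CPM in fed hepatocyte nuclei of 3 h and 865, 670, 779 and 708 CPM in fasted ones. The lowest fasted library was far above the highest fed one, and the level was 2.57 times as high (log2 1.36 ± 0.20, edgeR adjusted p = 4.58e-06). At 8 h it was 222 to 397 CPM fed and 422 to 720 CPM fasted (log2 0.86 ± 0.20, edgeR adjusted p = 0.000941), then 0.08 ± 0.20 at 16 h and 0.18 ± 0.19 at 24 h, not called. Macrophage-tagged nuclei showed the same order, with 96.7 to 143 CPM fed and 248 to 334 CPM fasted at 3 h (log2 1.19 ± 0.30, edgeR adjusted p = 0.0102, and 1.20 with 0.0244 without the libraries that stood apart) and 67.2 to 148 CPM fed and 166 to 361 CPM fasted at 8 h (log2 1.41 ± 0.30, edgeR adjusted p = 0.00272). Nr1i2 was also higher in the fasted pool of unpurified liver at 3 h in each line, at 599 against 235 CPM in the hepatocyte line and 668 against 307 CPM in the macrophage line.

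Nr1i3 in hepatocyte nuclei was 299 to 447 CPM fed and 387 to 843 CPM fasted at 3 h (log2 0.69 ± 0.27, edgeR adjusted p = 0.0410), and 112 to 277 CPM fed and 216 to 534 CPM fasted at 16 h (log2 0.91 ± 0.27, edgeR adjusted p = 0.0182, and 1.12 with 0.00472 without the libraries that stood apart). The groups overlapped at both times. When any 1 of 5 of the 8 libraries of 3 h, or fasted 1 or fed 3 of 16 h, was left out, the call was lost (edgeR adjusted p up to 0.183 and 0.0650). In macrophage-tagged nuclei it was 75.5, 75.1, 132 and 116 CPM fed and 179, 171, 276 and 260 CPM fasted at 8 h, with no overlap (log2 1.16 ± 0.35, edgeR adjusted p = 0.0278), and it was higher at 16 h by 1.38 ± 0.35 log2 units (edgeR adjusted p = 0.00988, and 1.40 with 0.00712 without the libraries that stood apart). The 8 h call was lost without fed 1, fed 2, fasted 3 or fasted 4 (edgeR adjusted p up to 0.115), and the 16 h call with the 8 libraries of that time alone (0.0533). Nr1i2 and Nr1i3 in macrophage-tagged nuclei stood inside the range of hepatocyte markers against liver, and summed hepatocyte markers there were 8336 to 9369 CPM fasted and 4231 to 6434 CPM fed at 8 h; the part of this in their rise was not tested. Vdr, the third receptor of the group, was testable only in macrophage-tagged nuclei and was called at no time, with log2 fold changes of -0.17 ± 0.31, -0.17 ± 0.31, 0.38 ± 0.32 and 0.33 ± 0.31.

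Hnf4a and Hnf4g, relatives that bind the same DNA element, went in opposite directions in hepatocytes. Hnf4a was 477, 492, 537 and 495 CPM fed and 965, 727, 918 and 883 CPM fasted at 3 h, with no overlap (log2 0.86 ± 0.17, edgeR adjusted p = 0.000191), and was not called later. Hnf4g was 46.6, 22.4, 29.3 and 34.6 CPM fed and 13.7, 10.9, 11.5 and 8.37 CPM fasted at 3 h (log2 -1.51 ± 0.26, edgeR adjusted p = 3.49e-05). At 8 h it was 19.5 to 29.2 CPM fed and 6.08 to 11.2 CPM fasted, a 3.01-fold difference (log2 -1.59 ± 0.26, edgeR adjusted p = 2.38e-05). The fasted Hnf4g libraries were under all fed ones at both times. In unpurified liver, averaged over the times, Hnf4a was higher by 0.25 ± 0.07 log2 units (edgeR adjusted p = 0.0182) and Hnf4g changed by -0.83. This Hnf4a call in unpurified liver was lost in some alternatives. In macrophage-tagged nuclei Hnf4a was higher at 8 h (log2 1.06 ± 0.30, edgeR adjusted p = 0.0209), where the groups met at 227 CPM. That call was lost without fed 1, fed 2 or fasted 3 (edgeR adjusted p up to 0.144).

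Nr2c2, which encodes the orphan receptor TR4, rose in both cell types, and at 3 and 8 h more in hepatocytes. TR4 binds repeats of the core element and is known for roles in lipid metabolism. In hepatocyte nuclei Nr2c2 (chr6:92091418-92173058, plus strand) was 115, 111, 119 and 111 CPM fed and 242, 188, 243 and 203 CPM fasted at 3 h, 2.0 times as high with a wide gap between the groups (log2 1.0 ± 0.12, edgeR adjusted p = 4.54e-07). At 8 h it was 120 to 134 CPM fed and 227 to 240 CPM fasted (log2 0.95 ± 0.12, edgeR adjusted p = 9.12e-07), and the 16 and 24 h values of 0.09 ± 0.12 and 0.20 ± 0.12 were not called. In macrophage-tagged nuclei it rose at all 4 times, by 0.41 ± 0.09, 0.34 ± 0.09, 0.31 ± 0.09 and 0.27 ± 0.09 log2 units (edgeR adjusted p = 0.00306, 0.0108, 0.0170 and 0.0393). That was less than in hepatocytes at 3 and 8 h but not at 16 and 24 h, where the effects of the cell types were not called different. Each of these 4 macrophage calls was lost in some alternative. With the 8 libraries of that time alone the edgeR adjusted p was 0.109 at 3 h and 0.121 at 16 h. The 8 h call was lost without fed 1 (0.0551), and the 16 h call without fasted 1, fasted 2 or fed 4 (up to 0.0660). At 24 h leaving out any 1 of 6 of the 8 libraries ended the call (up to 0.116). The changes at 3 and 16 h were 0.39 and 0.28 without the libraries that stood apart (edgeR adjusted p = 0.0101 and 0.0461). At 3 h the macrophage libraries held 130, 158, 130 and 144 CPM fed and 183, 168, 194 and 211 CPM fasted, again without overlap. The rise was larger in hepatocytes by 0.64 ± 0.15 log2 units at 3 h (edgeR adjusted p = 0.00385) and 0.69 ± 0.15 at 8 h (edgeR adjusted p = 0.00271), and both differences kept their call in every alternative run. Nr2c2 overlaps Mrps25 on the other strand.

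The related Nr2c1 (TR2) rose with it in hepatocytes, by 0.60 ± 0.15 log2 units at 3 h and 0.66 ± 0.15 at 8 h, from 48.7 to 68.6 CPM fed to 64.8 to 112 CPM fasted at 8 h, with overlap. Its effect at 8 h was larger than in macrophages by 0.54 ± 0.16 (edgeR adjusted p = 0.0300), a difference whose call was lost in some alternatives (edgeR adjusted p up to 0.125). Nr2f2, a regulator of vessel and stromal cells depleted from hepatocyte nuclei, was 23.7, 38.2, 29.0 and 31.1 CPM fed and 13.3, 16.2, 12.8 and 12.1 CPM fasted at 3 h, without overlap (log2 -1.11 ± 0.24, edgeR adjusted p = 0.000506). At 16 h it was higher in fasted libraries instead (log2 0.76 ± 0.23, edgeR adjusted p = 0.0230), at 22.0 to 25.0 CPM fed and 25.9 to 66.6 CPM fasted. This was 0.78 without the libraries that stood apart (edgeR adjusted p = 0.0433). The call was lost without fed 3 or fasted 4 (edgeR adjusted p up to 0.209). Nr2f6, also an orphan of this subfamily, changed sign as well: it was 56.0 to 70.0 CPM fed and 36.2 to 49.2 CPM fasted at 3 h (-0.54 ± 0.13, edgeR adjusted p = 0.00145), and 31.5 to 34.2 CPM fed and 37.5 to 46.1 CPM fasted at 24 h (0.37 ± 0.13, edgeR adjusted p = 0.0347). The groups were separate at each of these times. The 24 h call was lost when any 1 of 6 of the 8 libraries was left out (edgeR adjusted p up to 0.101).

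Esr1, the gene of estrogen receptor α, showed the deepest fall of the receptors called. In hepatocyte nuclei of these female mice Esr1 (chr10:4611989-5005633, plus strand) was 825, 726, 806 and 1034 CPM in libraries fed to 8 h and 151, 132, 157 and 101 CPM in those fasted for 8 h. The fasted level was 16.7% of the fed one and every fasted library was under every fed one (log2 -2.59 ± 0.26, edgeR adjusted p = 1.36e-08). At 24 h it was 2067, 1428, 2184 and 3868 CPM fed and 502, 591, 588 and 610 CPM fasted, again with no overlap and 24.3% of the fed level (log2 -2.04 ± 0.25, edgeR adjusted p = 1.50e-06). Between these times, at 16 h, fed and fasted libraries lay together at 374 to 560 and 432 to 634 CPM (log2 0.12 ± 0.24, edgeR adjusted p = 0.772), and at 3 h the difference of -0.46 ± 0.24 did not pass (edgeR adjusted p = 0.133). The effect differed between the times (edgeR adjusted p = 3.11e-06). The times with a fall were thus zeitgeber times 20 and 12, and the fed level was lowest at zeitgeber time 4.

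The same times carried the fall in macrophage-tagged nuclei. There Esr1 was 248, 230, 373 and 330 CPM fed and 122, 67.1, 43.2 and 86.4 CPM fasted at 8 h (log2 -1.90 ± 0.42, edgeR adjusted p = 0.00375), and 753, 750, 923 and 1167 CPM fed and 210, 227, 215 and 403 CPM fasted at 24 h (log2 -1.79 ± 0.42, edgeR adjusted p = 0.00437). The groups did not overlap at either time. Between the cell types the effect differed by -0.64 ± 0.48 log2 units at 8 h and -0.26 ± 0.48 at 24 h (edgeR adjusted p = 0.464 and 0.824). The unpurified pools gave 712 CPM fed and 124 CPM fasted at 8 h and 1993 and 460 CPM at 24 h in the hepatocyte line, and 798 and 152 CPM at 8 h and 2246 and 534 CPM at 24 h in the macrophage line. Esr1 in macrophage-tagged nuclei lay within the range of hepatocyte markers against liver. Summed hepatocyte markers in these libraries were 8336 to 9369 CPM fasted and 4231 to 6434 CPM fed at 8 h, and 9037 to 13124 and 5736 to 10346 CPM at 24 h. The part of hepatocyte RNA in the fall was not tested.

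**Figure D4:**
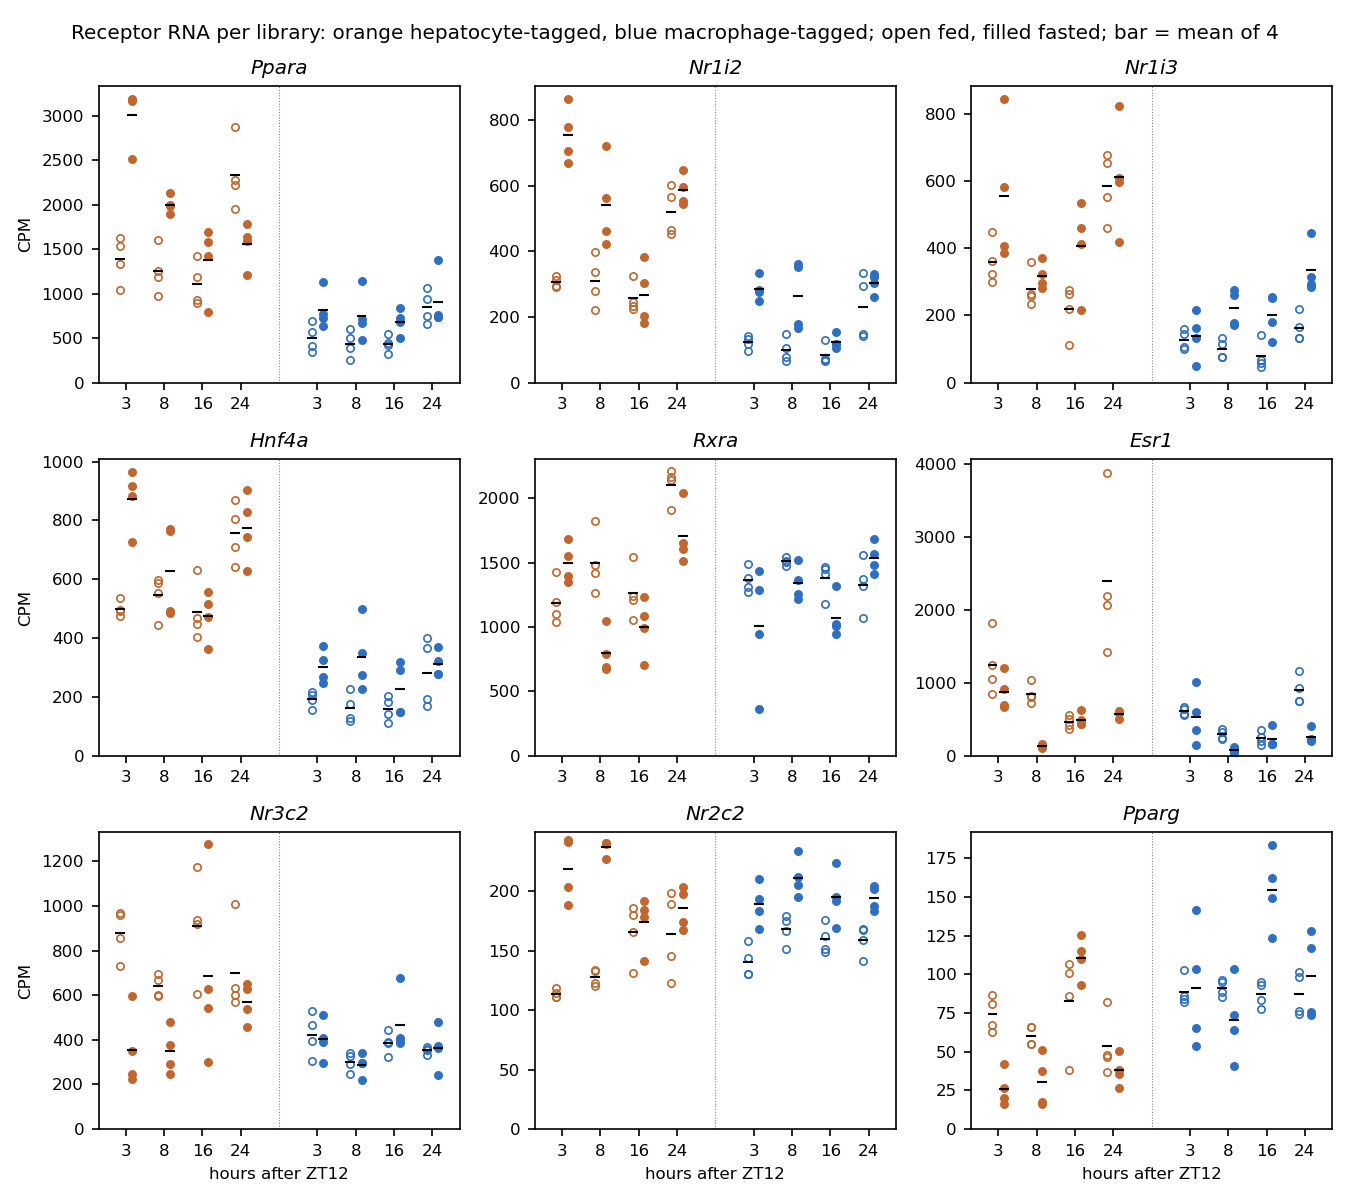
CPM of 9 receptor genes in each tagged library (1 point per library, axes from 0) at 3, 8, 16 and 24 h, in hepatocyte (orange) and macrophage nuclei (blue), fed (open) and fasted (filled), with bars at the mean of 4 libraries. Esr1 separates fully at 8 and 24 h and mixes at 16 h, and Nr1i2 and Nr2c2 separate in hepatocyte nuclei at 3 and 8 h.

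Other steroid receptor relatives moved early. Esrrg, an estrogen-related receptor that acts without a known natural hormone, was 1115, 430, 593 and 751 CPM fed and 300, 281, 192 and 285 CPM fasted in hepatocytes at 3 h (log2 -1.38 ± 0.41, edgeR adjusted p = 0.00892), and 471 to 651 CPM fed and 153 to 303 CPM fasted at 8 h (log2 -1.16 ± 0.41, edgeR adjusted p = 0.0265). The groups were separate at both times. The 3 h call was lost without fed 1 (edgeR adjusted p = 0.0531) and the 8 h call without fasted 2, fasted 4 or fed 4 (up to 0.0916). Nr3c2, the mineralocorticoid receptor gene, was 857, 731, 959 and 971 CPM fed and 247, 596, 223 and 349 CPM fasted at 3 h, with no overlap (log2 -1.25 ± 0.31, edgeR adjusted p = 0.00211), and lower at 8 h by 0.82 ± 0.31 (edgeR adjusted p = 0.0376). This call was lost when any 1 of 7 of the 8 libraries was left out (edgeR adjusted p up to 0.127). In macrophage-tagged nuclei its changes were -0.09 ± 0.21 and -0.07 ± 0.21, and the effect differed between the cell types over the 4 times (edgeR adjusted p = 0.0498), a call lost without the libraries that stood apart (0.0756). Esrra, which works with PGC-1α on mitochondrial genes, was lower in macrophage-tagged nuclei at 3 h (log2 -0.42 ± 0.13, edgeR adjusted p = 0.0338). Without the libraries that stood apart its change was -0.23 (edgeR adjusted p = 0.113). Pgr was close to 0 throughout and was not tested.

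Nr5a2 and Nr6a1 changed by small, tight steps. Nr5a2, the liver receptor homolog that helps drive bile acid synthesis, was 517, 590, 526 and 511 CPM fed and 419, 409, 396 and 428 CPM fasted at 8 h (log2 -0.32 ± 0.12, edgeR adjusted p = 0.0274), and 420, 442, 598 and 441 CPM fed and 753, 626, 625 and 658 CPM fasted at 24 h (log2 0.51 ± 0.12, edgeR adjusted p = 0.00199). The order of the groups was thus opposite at the 2 times, without overlap at either. The 8 h call was lost when any 1 of 6 of the 8 libraries was left out (edgeR adjusted p up to 0.0979). Nr6a1, the germ cell nuclear factor gene, was 301, 302, 291 and 296 CPM fed and 430, 439, 453 and 424 CPM fasted at 8 h, 2 narrow groups set well apart (log2 0.61 ± 0.08, edgeR adjusted p = 2.12e-06). It was higher also at 3 h (0.32 ± 0.08) and, in macrophage-tagged nuclei, at 8 h (0.54 ± 0.17, edgeR adjusted p = 0.0350), where any 1 of 5 libraries left out ended the call (edgeR adjusted p up to 0.136).

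In macrophage-tagged nuclei fewer receptors were called. Of 31 tested, 5 differed at 3 h (3 higher, 2 lower) against 12.4% of all genes (7.7% higher, 4.68% lower). At 8 h 8 differed (5 higher, 3 lower) against 12.8% (7.44% higher, 5.4% lower). At 16 h 3 differed (3 higher, 0 lower) against 13.7% (7.72% higher, 5.99% lower), and at 24 h 3 (1 higher, 2 lower) against 11.7% (5.31% higher, 6.35% lower). Called with no overlap of the groups were 4, 7, 1 and 3 of them. Over all genes tested 9.4%, 10.9%, 10.5% and 10% met both conditions, or 75.9%, 85.2%, 76.3% and 85.8% of the genes called. The members called were Nr1i2, Nr2c1, Nr2c2, Rxrg and Esrra at 3 h, Nr1i2, Nr1i3, Hnf4a, Nr2c2, Nr6a1, Ppard, Nr1h3 and Esr1 at 8 h, Pparg, Nr1i3 and Nr2c2 at 16 h, and Nr2c2, Thrb and Esr1 at 24 h. Without the libraries that stood apart the counts were 4, 12, 3 and 5, and leaving out single libraries gave 3 to 7, 3 to 9, 1 to 4 and 1 to 3. At 3 h Esrra and Nr2c1 (0.24 with all libraries, edgeR adjusted p = 0.0392, and 0.19 with 0.125 without these) were lost and Esrrg was called (log2 -1.05, edgeR adjusted p = 0.00696). Summed hepatocyte markers were 9181 to 18770 CPM fasted and 5216 to 8895 fed at 3 h, 8336 to 9369 and 4231 to 6434 at 8 h, 6396 to 8709 and 5179 to 6579 at 16 h, and 9037 to 13124 and 5736 to 10346 at 24 h. They were separate at 3 and 8 h, and 2, 7, 3 and 2 of the 14 hepatocyte markers were called higher at the 4 times and 0 lower. The part of hepatocyte RNA in the macrophage receptor calls was not tested.

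The effects of the cell types were compared directly in a fit to all 64 tagged libraries. Over the 4 times 7 of 32 receptors had an effect that differed (Nr2c2, Rxra, Nr2c1, Nr1h2, Pparg, Ppard and Nr3c2), against 19.3% of all genes. At single times 5 differed at 3 h (Pparg, Nr2c2, Rxra, Rxrb and Nr1h2) against 10.6% of all genes, and 3 at 8 h (Ppard, Nr2c1 and Nr2c2) against 7.62%. At 16 and 24 h 0 receptors did, against 0.535% and 4.05% of all genes, by the same edgeR test. Without the libraries that stood apart 5 differed over the times, 4 of the 7 among them, and Nr1h2, Nr3c2 and Pparg were lost. Only Nr2c2 and Rxra of the 7 kept their call in every alternative. At 3 h the calls of Nr2c2 and Nr1h2 were kept without them and those of Pparg, Rxra and Rxrb were lost. The pairs of gene and time that were called numbered 48 in hepatocytes and 19 in macrophage-tagged nuclei, with 13 called in the same direction in both and 0 in opposite directions. The 13 were 27.1% of the hepatocyte and 68.4% of the macrophage calls, against 24.6% and 57.6% over all genes tested in both, of which 3810 pairs were alike and 64 opposite.

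**Figure D5:**
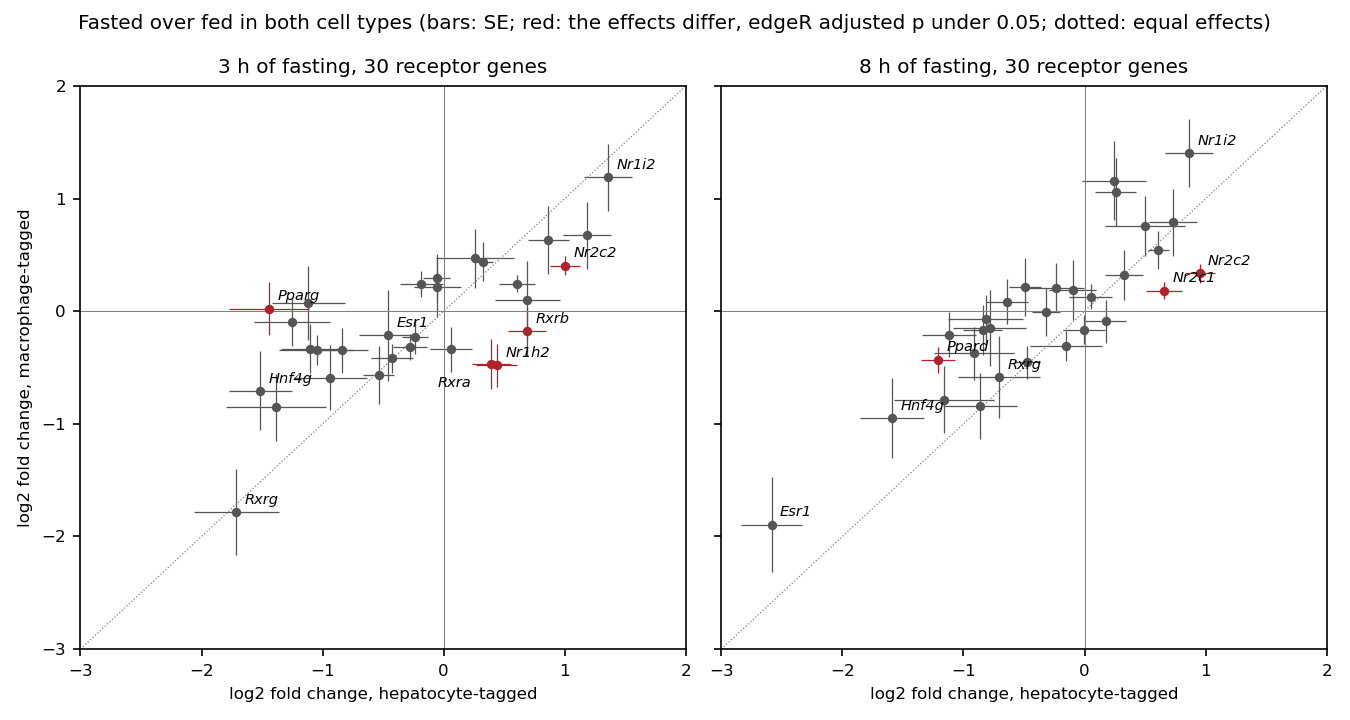
Log2 fold change of fasted over fed libraries in hepatocyte-tagged (x axis) and macrophage-tagged nuclei (y axis) for the 30 receptor genes tested in both, at 3 h and 8 h, with SE bars. Red points are the 5 genes at 3 h and 3 genes at 8 h whose effects differed between the cell types, and Nr1i2 and Rxrg at 3 h lie near the dotted line of equal effects.

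The fasting effect on most receptors depended on the time in hepatocytes. By an F-test over the 4 fasting effects 20 of 30 receptors differed between times, against 32.8% of all genes, with the smallest adjusted p for Esr1 (edgeR, 3.11e-06), Nr2c2 (0.000123), Ppard (0.000164) and Ppara (0.00020). In macrophage-tagged nuclei 3 of 31 did (Rxrg, Thrb and Esrrg) against 4.65% of all genes. Of these calls 19 of the 20 and all of the 3 were kept without the libraries that stood apart, and Rarb was lost. Across all alternatives 16 of the 20 and 2 of the 3 were kept. In unpurified liver, where the effect averaged over the 4 times was tested in 16 pools, 18 of 32 receptors were called (7 higher, 11 lower) against 35.2% of all genes (16.4% higher, 18.8% lower). There Esr1 changed most (log2 -1.38 ± 0.08, edgeR adjusted p = 7.45e-07), with Hnf4g (-0.83), Rarb (-0.65) and Rxrg (-0.60) next among the lower ones, and Nr1i2 (0.56 ± 0.08), Nr1i3 (0.51 ± 0.13) and Nr2c2 (0.36) among the higher ones. Of the 18 calls 13 were kept in every alternative, and those of Esrrb, Hnf4a, Nr2c1, Rara and Rxrg were lost in some.

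Receptor levels also followed the time of day in mice that ate freely. In fed hepatocyte nuclei 19 of 30 receptors differed between the 4 times (edgeR F-test), against 30.1% of all genes. Of these, 8 were highest at zeitgeber time 12, the end of the light phase (Ppara, Rxra, Rxrb, Nr1h4, Nr1i2, Nr1i3, Hnf4a and Esr1), and 9 were lowest at zeitgeber time 4. That is 42.1% and 47.4% of the called receptors, where 34.8% of all called genes were highest at 12 and 26.3% lowest at 4. Esr1 had the widest range, from 462 ± 83.2 CPM at zeitgeber time 4 to 2387 ± 1042 CPM at 12 (5.17 times, edgeR adjusted p = 2.26e-07, SD over 4 libraries). Ppard ran from 75.1 ± 19.7 CPM at zeitgeber time 4 to 257 ± 36.6 CPM at 20 (3.42 times, edgeR adjusted p = 1.46e-09). These ranges were as wide as many fasting effects, which is why each fasted group was set against the fed group of its own time. Nr1i3 ranged over 2.69 times (218 ± 75.1 to 586 ± 99.6 CPM), Ppara over 2.11 times (1107 ± 246 to 2331 ± 390 CPM), Nr1i2 over 2.03 times and Nr1h4 over 1.92 times, each lowest at zeitgeber time 4 and highest at 12. Thra (2.70 times) and Nr2f6 (2.04 times) were instead highest at zeitgeber time 20 and lowest at 12. In fed macrophage-tagged nuclei 6 of 31 differed (Ppara, Ppard, Rxrg, Nr1h4, Nr1i2 and Esr1), against 12.8% of all genes. Across all alternatives 15 of the 19 hepatocyte and 5 of the 6 macrophage calls were kept. Rxrg was highest at zeitgeber time 4 (5.71 CPM) and lowest at 12 (1.41 CPM), while Esr1 ran the other way, from 241 to 898 CPM. Summed hepatocyte markers in fed macrophage-tagged libraries had a median of 8218 CPM at zeitgeber time 12 and 5340 to 6436 CPM at the others, with overlapping ranges. Ppara, Nr1h4, Nr1i2 and Esr1, all highest at 12, lay inside the range of hepatocyte markers against liver, as did Rxrg, and Ppard lay above it. The part of hepatocyte RNA in these calls was not tested.

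The genes that receptors act through were taken from lists of coregulators and of known targets. Of 22 coregulators in hepatocytes 10 were higher and 2 lower at 3 h and 7 higher and 3 lower at 8 h, with a median log2 fold change of 0.18 and 0.11. Of all genes 19.5% were higher and 20.4% lower at 3 h, and 18% and 20.7% at 8 h. Lpin1, a coactivator of PPARα and a phosphatidate phosphatase, went from 170 ± 83.3 CPM fed to 3020 ± 606 CPM fasted at 3 h (log2 4.21 ± 0.76, edgeR adjusted p = 7.18e-05). Ppargc1a, the fasting-induced coactivator PGC-1α, rose by 2.41 ± 0.55 and its relative Ppargc1b by 1.47 ± 0.26 log2 units. In macrophage-tagged nuclei 6 coregulators were higher and 0 lower at 3 h (7.7% and 4.68% of all genes), led by Lpin1 (3.78 ± 0.41), Ppargc1a (2.35 ± 0.33) and Ncoa1 (1.13 ± 0.18). Summed hepatocyte markers there were also higher at 3 h, at 9181 to 18770 CPM fasted and 5216 to 8895 CPM fed. The part of hepatocyte RNA in these rises was not tested.

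Most targets of PPARα were raised in hepatocytes at each time. Of the 20, 18, 19, 16 and 12 were higher at 3, 8, 16 and 24 h (19.5%, 18%, 9.55% and 11.6% of all genes) and 0, 0, 0 and 2 lower, with median log2 fold changes of 1.55, 1.76, 1.0 and 0.50. Cyp4a14, a fatty acid hydroxylase, went from 94.9 ± 27.1 to 2950 ± 1027 CPM at 8 h (log2 5.02 ± 0.49, edgeR adjusted p = 1.69e-08), and the thioesterase gene Acot1 rose by 4.13 ± 0.35. Reads of close Cyp4a and Acot paralogs cannot be told apart. The fasting hormone gene Fgf21 went from 0.270 ± 0.193 to 6.79 ± 2.35 CPM (log2 4.70 ± 0.51), so its fold rests on a very low fed level. In macrophage-tagged nuclei 9, 16, 17 and 10 were higher (7.7%, 7.44%, 7.72% and 5.31% of all genes) and 0 lower. All 20 targets stood below liver there (median log2 difference -1.13), near the hepatocyte markers (-1.23), and the part of hepatocyte RNA in their rise was not tested.

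Targets of the liver X receptors divided. Of 14 in hepatocytes 3 were higher and 6 lower at 3 h, 4 and 5 at 8 h, 0 and 6 at 16 h and 1 and 7 at 24 h. Of all genes 19.5%, 18%, 9.55% and 11.6% were higher and 20.4%, 20.7%, 8.55% and 12.4% lower at these times. The lipogenic genes Fasn (fatty acid synthase, log2 -3.88 ± 0.52) and Scd1 (stearoyl-CoA desaturase, -3.59 ± 0.54) and the bile acid enzyme gene Cyp7a1 (-3.53 ± 0.66) fell most at 3 h, from 1882 to 122, 847 to 67.1 and 342 to 28.5 CPM. In macrophage-tagged nuclei 3 were higher and 4 lower at 3 h (7.7% and 4.68% of all genes), with Fasn at -2.99 ± 0.50, Srebf1 at -1.95 ± 0.38 and the sterol exporter gene Abcg5 at 1.76 ± 0.35. Of 10 testable targets of the farnesoid X receptor 3 were higher and 3 lower at 3 h (19.5% and 20.4% of all genes). At 8 h 1 was higher and 5 lower (18% and 20.7% of all genes). The higher ones at 3 h were Nr0b2, itself a receptor family corepressor (log2 1.67 ± 0.59), the phospholipid exporter gene Abcb4 (1.38 ± 0.24) and Fetub (1.35 ± 0.22), in libraries in which Nr1h4 was not called. Nr0b2 (1.87 ± 0.58) and Abcb4 (1.0 ± 0.28) were also higher in macrophage-tagged nuclei. For the targets of both receptors, the part of hepatocyte RNA in the macrophage-tagged changes was not tested.

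Of 14 testable targets of the pregnane X and constitutive androstane receptors 6 were higher and 5 lower in hepatocytes at 3 h, and 7 higher and 1 lower at 8 h. Of all genes 19.5% and 18% were higher and 20.4% and 20.7% lower at these times. Por, the electron donor of the cytochromes P450, went from 265 ± 13 to 1760 ± 226 CPM at 3 h (log2 2.79 ± 0.32, edgeR adjusted p = 1.86e-07), Gadd45b rose by 2.83 ± 0.53 and the glutathione transferase gene Gstm3 was lower by 3.70 ± 0.68 log2 units. In macrophage-tagged nuclei 6 were higher and 0 lower at 8 h (7.44% and 5.4% of all genes), led by Alas1 (2.59 ± 0.46), Cyp2b10 (2.41 ± 0.65) and Por (2.06 ± 0.32). Summed hepatocyte markers there were 8336 to 9369 CPM fasted and 4231 to 6434 CPM fed at 8 h, and the part of hepatocyte RNA in these rises was not tested. Of 10 thyroid hormone receptor targets 4 were higher and 2 lower in hepatocytes at 8 h (18% and 20.7% of all genes), with Idi1 at -3.96 ± 0.43, Thrsp at -2.95 ± 0.72 and Gpd2 at 1.34 ± 0.31. At 24 h 2 were higher and 3 lower in hepatocytes (median log2 fold change 0.04), and 1 higher and 5 lower in macrophage-tagged nuclei (median -0.52), among the latter Thrsp (-4.23 ± 0.58), Dio1 (-2.04 ± 0.44) and Idi1 (-1.99 ± 0.40). Of all genes 11.6% were higher and 12.4% lower in hepatocytes at 24 h, and 5.31% and 6.35% in macrophage-tagged nuclei. Here too the part of hepatocyte RNA in the macrophage-tagged changes was not tested. Of 10 testable retinoid targets and enzymes 2 were higher and 5 lower in hepatocytes at 3 h (19.5% and 20.4% of all genes), with the retinoic acid hydroxylase gene Cyp26b1 at 1.89 ± 0.76 and Tgm2 at -1.27 ± 0.39.

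The authors' deposited tables of their own comparisons listed 17 of the receptors for hepatocytes and 6 for macrophages. In the authors' deposited table for hepatocytes 12, 9, 2 and 4 of the 17 had an adjusted p under 0.05 at 3, 8, 16 and 24 h. Each of these was also called from the counts by edgeR, in the same direction, where 13, 11, 2 and 6 of the 17 were called. In the authors' deposited table for macrophages 0, 1, 0 and 0 of the 6 passed, against 1, 1, 0 and 0 from the counts.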

How the data were processed

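Total nuclear RNA of 80 libraries was sequenced as stranded paired reads. The authors deposited raw counts per gene for all libraries, aligned with STAR 2.4.2a to mm10, per the submitters' processing notes; the counting tool and its strand setting were not given in the sources used here. For a subset of genes the authors deposited a normalized signal per library, log2 fold changes and adjusted p-values of fasted against fed mice, and the submitters' processing notes name DESeq2 1.24.0. How that subset was picked was not given in the sources used here.

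All 33 members, the gene lists, the tests and the rule for named genes were chosen with earlier results of these data known. Every member is described. Of each other list at most 3 genes per cell type are named, those with the largest log2 fold change among called genes of at least 1 CPM, at the time with most calls. A gene that this rule selects is not reported here. Of 190 listed genes 187 were found. Groups come from the sample titles. The labels give no replicate numbers, so libraries were numbered in accession order, and the numbers pair no samples.

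Tests ran in R 4.3.3 with edgeR 4.0.16 (limma 3.58.1): filterByExpr (count minimum 10, total minimum 15), TMM scaling, robust quasi-likelihood F-tests, and Benjamini-Hochberg adjustment over all genes at 0.05. The SE is the log2 fold change divided by the root of F. Fasting was tested at each time in a fit to the 32 tagged libraries of a line, cell types in a fit to all 64, tagged nuclei against pools within conditions, and pools for the mean effect over times. CPM are counts over TMM-scaled totals. The test was checked on simulated counts. Alternatives were RLE scaling, no filter, DESeq2 1.42.0, each replicate left out, a block of library-number runs, the 8 libraries of a time alone, and, chosen after seeing the data, leaving out 3 libraries that correlated under 0.98 with their group. Promoter sequences are RefSeq's on GRCm38.p6. Pgr in all tests, and Vdr or Nr2f1 in some, had too few counts and were left out.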

Additional observations from a re-analysis of the deposited data

Results flagged for a closer look

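Of the 30 receptors tested, 20 had a hepatocyte fasting effect that differed between the 4 times. The edgeR adjusted p was 3.11e-06 for Esr1, 0.000123 for Nr2c2, 0.000164 for Ppard, 0.00020 for Ppara, 0.000393 for Nr2f2, 0.000833 for Nr6a1, 0.00107 for Nr2f6, 0.00164 for Rxra, 0.00185 for Nr1i2 and 0.00192 for Nr5a2. It was 0.00498 for Nr1h3, 0.0105 for Nr2c1, 0.0121 for Hnf4g, 0.0140 for Pparg, 0.0175 for Hnf4a, 0.0182 for Rxrb, 0.0200 for Thra, 0.0202 for Rxrg, 0.0315 for Esrrg and 0.0479 for Rarb. In macrophage-tagged nuclei the same test gave edgeR adjusted p = 0.0140 for Esrrg, 0.0172 for Rxrg and 0.0481 for Thrb.

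The fasting effect differed between the cell types over the times for 7 receptors, with edgeR adjusted p = 0.000224 for Nr2c2, 0.0215 for Rxra, 0.0249 for Nr2c1, 0.0380 for Nr1h2, 0.0410 for Pparg, 0.0413 for Ppard and 0.0498 for Nr3c2. At 3 h alone it was 0.00385 for Nr2c2, 0.0106 for Nr1h2, 0.0208 for Pparg, 0.0250 for Rxrb and 0.0268 for Rxra, and at 8 h 0.00271 for Nr2c2, 0.00984 for Ppard and 0.0300 for Nr2c1. Without the macrophage-tagged fasted library of 3 h numbered 3 and the other libraries that stood apart, the differences of Pparg, Rxra and Rxrb at 3 h did not pass.

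The check for an outlying library covered 134 pairs of a called receptor gene and a group of 4 libraries. The pairs share libraries, so the rate of about 1 in 20 that chance gives for independent groups does not apply to them. In 9 pairs 1 library lay far from the rest. In fed hepatocyte groups these were Nr1h2 at 3 h (10.2 CPM, next 14.3), Hnf4g at 8 h (19.5, next 27.7), Nr2f2 at 16 h (22.0, next 24.6) and Nr5a2 at 24 h (598, next 442). In fasted hepatocyte groups they were Ppara at 3 h (2513 CPM, next 3165) and Nr2c2 at 8 h (227, next 240). In fasted macrophage groups they were Esrra at 3 h (25.7 CPM, next 48.6), Rxrg at 3 h (0.736, next 1.61) and Esr1 at 24 h (403, next 227). That Esrra value came from the macrophage-tagged library with the highest sums of both hepatocyte and macrophage markers.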

How the results depend on the processing

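No member changed direction while called in any alternative. With the 8 libraries of a time alone, 0 receptors were called in hepatocytes at 16 h (885 of all genes in place of 2343), 1 in macrophages at 3 h (247 in place of 1716) and 1 at 16 h (989 in place of 1901). With no filter on low counts, 3 effects differed between the cell types. Without the libraries that stood apart, 5 receptors were called in macrophages at 24 h. Leaving out each replicate in turn gave 0 to 4 calls in hepatocytes at 16 h (0 without the fed library numbered 3) and 3 to 6 at 24 h (3 without fasted 1, fasted 4 or fed 3). In macrophages it gave 3 to 7 at 3 h, 3 to 9 at 8 h, 1 to 4 at 16 h, 1 to 3 at 24 h and 2 to 5 for effects that differ between times, and 4 to 8 effects differed between the cell types. Counts moved by over 1.5 times in macrophages without fed 1 or 3 at 3 h (3 each), fed 1 (3), fed 2 (4), fasted 3 (4) or fasted 4 (5) at 8 h, fasted 1 or fed 4 at 16 h (1 each), fasted 3 or fed 4 at 24 h (1 each), and, for effects that differ between times, fasted 1 of 8 h (5). Effects that differ between cell types fell to 4 without hepatocyte fasted 4, macrophage fasted 3, fed 3 or fed 4 of 3 h, or hepatocyte fed 2 of 8 h. The cause was not tested.

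Across all alternatives 16 of 20 hepatocyte calls were kept at 3 h, 13 of 19 at 8 h, 0 of 3 at 16 h and 3 of 6 at 24 h, and in macrophages 1 of 5 (Nr1i2), 3 of 8 (Ppard, Nr1i2 and Esr1), 0 of 3 and 1 of 3 (Esr1). All 28 differences between fed cell types and all 31 of macrophage nuclei from liver were kept. Of hepatocyte nuclei against liver 16 of 17 were kept (Rarb lost), and of fasting in unpurified liver 13 of 18. Effects that differ between times kept 16 of 20 calls in hepatocytes (Esrrg, Rarb, Rxrg and Thra lost) and 2 of 3 in macrophages (Thrb lost). The fed time of day kept 15 of 19 (Esrra, Hnf4g, Nr2c1 and Nr5a2 lost) and 5 of 6 (Ppara lost). Effects that differ between cell types kept 2 of 7, Nr2c2 and Rxra. DESeq2 called 1645 genes in place of 645 for macrophage effects that differ between times. No paired analysis was possible because the labels give no replicate numbers. A replicate block of library-number runs gave 21, 19, 3 and 6 calls in hepatocytes and 5, 10, 4 and 4 in macrophages. Pgr, Vdr and Nr2f1 averaged 0.938, 1.25 and 3.81 counts per fed hepatocyte library and were not tested there. The next lowest were Esrrb (62.1), Nr1h5 (70.1) and Rarg (91.4).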
